A study of Mus musculus with 36 samples.

Results

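The genes described here are the constitutive subunits, activators, inhibitor and assembly chaperones of the mouse proteasome, taken as every gene of the table whose symbol starts with Psma, Psmb, Psmc, Psmd, Psme, Psmf or Psmg except the inducible catalytic subunits Psmb8, Psmb9 and Psmb10. The rule gave 46 genes of the 16416 used, and all 46 were among the 11656 genes expressed highly enough to be tested. One of the 46, Psmc3ip, carries the prefix but encodes a meiotic recombination factor and no proteasome subunit, so it is given apart. RNA was sequenced in 36 libraries of bone marrow-derived macrophages, cells grown from marrow for 7 days with 10% serum (FCS) and 10% supernatant of L929 cells, a source of the macrophage growth factor M-CSF. The macrophages were wild type (WT) or carried Tnip2[D310N], a point mutation in the gene for ABIN-2, a ubiquitin-binding protein that associates with the kinase TPL2 (D310N). Lipopolysaccharide (LPS), the bacterial ligand of Toll-like receptor 4, was added at 100 ng/ml for 30, 60, 120, 240 or 360 min, cells without LPS served as 0 min, and each of the 12 groups held 3 libraries. The age, sex and strain of the mice are not given in the sources used here.

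The proteasome is the protease that degrades ubiquitin-tagged proteins. Its barrel, the 20S core, stacks outer rings of alpha subunits (Psma genes) on inner rings of beta subunits (Psmb genes), and Psmb5, Psmb6 and Psmb7 carry the active sites. The 19S cap, which binds, unfolds and feeds in tagged substrates, is built from ATPases (Psmc genes) and non-ATPase subunits (most Psmd genes), while PA28 (Psme1 and Psme2 in the cytoplasm, Psme3 in the nucleus) and PA200 (Psme4) are alternative caps. In macrophages exposed to inflammatory signals, Psmb8, Psmb9 and Psmb10 can replace the constitutive active subunits to give the immunoproteasome, which, with PA28, favours the making of peptides for MHC class I.

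Values are the authors' normalised expression on a log2 scale, in which a step of 1 is a doubling. A difference (group mean minus group mean) is given with its standard error (SE) from limma, a gene was called at a Benjamini-Hochberg adjusted p under 0.05 over all genes tested, and n is 3 libraries per group throughout. Read depth is unknown. All 8 macrophage markers examined were present, with mean values from 10.19 to 17.00. The level needed for testing was also passed by 2 of 4 T cell (Cd4 and Lck) and 1 of 5 B cell (Cd79b) markers. It was passed by 2 of 6 neutrophil and progenitor (S100a8 and S100a9), 2 of 4 dendritic cell (Zbtb46 and Xcr1) and 2 of 4 fibroblast (Col1a2 and Pdgfrb) markers. The erythroid list gave 0 of 1. The highest mean of a marker outside the macrophage list was 6.65, in the T cell list. The remaining markers, among them Cd3g, Ly6g and Hba-a1, did not pass. The library WT 360 min replicate 1 stood apart from its group, with the largest deviation of all 36 (root mean square 0.246 against at most 0.177 in the others), and the values it moved most among those given at 360 min are also given without it; the shares of the 360 min rise include it.

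The promoters of 8 members are shown: Psme1, Psme2, Psma6, Psma5 and Psmd10 had rises of over 1 on the log2 scale in WT at 240 min, Psmb5 and Psmc1 had small differences, and Psmd5 fell and differed between the genotypes. The sequences are RefSeq promoters on GRCm38.p6, read 5′ to 3′ on the gene's strand and ending 25 bases past the transcription start. They lie at chr14:55578344-55578518 (plus strand), chr14:55591077-55591251 (minus), chr12:55384042-55384246 (plus), chr3:108256776-108256950 (plus), chrX:140956687-140956861 (minus), chr14:54617971-54618145 (minus), chr12:100110022-100110226 (plus) and chr2:34870938-34871142 (minus). Capitals mark matches, on either strand, to GAAA, any 2 bases and GAAA (an interferon response form), TGACNNNGC or TGAGNNNGC (antioxidant response forms, the kind of element that the proteasome gene activator NRF1 binds), CCAAT, or GGGGNNTCC (an NF-kB form).
Psme1: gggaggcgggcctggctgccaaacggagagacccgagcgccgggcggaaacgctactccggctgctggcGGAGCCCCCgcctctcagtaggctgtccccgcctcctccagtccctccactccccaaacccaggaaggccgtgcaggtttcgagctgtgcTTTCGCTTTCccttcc
Psme2: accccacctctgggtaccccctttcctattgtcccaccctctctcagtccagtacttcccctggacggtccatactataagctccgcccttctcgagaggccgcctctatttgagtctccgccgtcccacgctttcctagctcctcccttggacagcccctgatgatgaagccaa
Psma6: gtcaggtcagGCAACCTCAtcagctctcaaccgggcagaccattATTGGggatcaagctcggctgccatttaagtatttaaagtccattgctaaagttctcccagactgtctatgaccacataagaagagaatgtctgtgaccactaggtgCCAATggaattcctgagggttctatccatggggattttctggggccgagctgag
Psma5: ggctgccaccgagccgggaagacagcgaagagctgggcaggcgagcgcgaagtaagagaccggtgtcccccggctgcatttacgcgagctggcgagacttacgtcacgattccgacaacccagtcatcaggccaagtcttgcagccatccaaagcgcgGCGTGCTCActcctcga
Psmd10: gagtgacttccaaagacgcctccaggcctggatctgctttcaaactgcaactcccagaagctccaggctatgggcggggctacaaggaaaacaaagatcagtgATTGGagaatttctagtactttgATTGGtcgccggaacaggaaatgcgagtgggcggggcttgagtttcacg
Psmb5: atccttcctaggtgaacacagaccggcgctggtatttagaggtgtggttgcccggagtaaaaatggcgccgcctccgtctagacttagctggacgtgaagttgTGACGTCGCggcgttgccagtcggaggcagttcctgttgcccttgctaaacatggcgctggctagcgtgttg
Psmc1: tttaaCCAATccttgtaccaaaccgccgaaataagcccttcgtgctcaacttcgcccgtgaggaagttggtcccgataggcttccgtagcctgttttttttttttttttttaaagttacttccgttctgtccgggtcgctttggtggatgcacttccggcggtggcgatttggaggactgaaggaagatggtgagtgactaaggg
Psmd5: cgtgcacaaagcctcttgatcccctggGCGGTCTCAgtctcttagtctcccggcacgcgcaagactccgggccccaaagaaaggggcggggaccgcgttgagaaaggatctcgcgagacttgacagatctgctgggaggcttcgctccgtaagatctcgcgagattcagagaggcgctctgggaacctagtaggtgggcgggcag
Promoters with 250 bases before the start and 50 after it were found for 38 of the 46 members. These members had 41 promoters in all, since 3 of them had more than 1. The interferon response form was in 5 of the 41 promoters (12.2%), those of Psmb3, Psmd4, Psmd9, Psme1 and Psmg4, and in 3.44% of all 32851 promoters. TGAGNNNGC was in 14 of the 41 (34.1% against 17.6% of all promoters), TGACNNNGC in 6 (14.6% against 12.4%), CCAAT in 13 (31.7% against 37.4%) and GGGGNNTCC in 3 (7.32% against 5.65%). These are letter matches only; Psme1 shows the interferon and NF-kB forms, while the window of Psme2 shows none of the 5.

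With the values as deposited, most proteasome genes of WT macrophages were higher after LPS than at 0 min. Of the 39 rises at 240 min, 12 lay below 0 after quantile normalisation, which gives every library the same distribution of values. No group without LPS was sampled at the later times, so LPS and the time since 0 min cannot be told apart. At 240 min, 39 of the 46 members were called higher (39.6% of all tested genes were) and 4 lower (40.4% of all tested genes), with a median difference of 0.42 on the log2 scale against -0.02 over all tested genes. After quantile normalisation the split was 23 higher (33.6% of all tested genes) and 9 lower (45.0%), and the members' median was 0.12 (all genes -0.10). Of the 39, 22 were called higher under all 3 scalings, and 6 turned into called falls: Psma1 (-0.37), Psmc3 (-0.25), Psmd1 (-0.55), Psmd2 (-0.48), Psmd3 (-0.13) and Psmd8 (-0.45). How many of all tested genes kept or changed direction in this way is not given here, so the 12, 22 and 6 have no share beside them. Trimmed mean scaling gave 39 and 4 again. In bulk RNA, a change in the RNA per cell and a change in the share of cells that make it cannot be told apart. Counts and medians of WT and D310N against their own 0 min groups use different libraries, while the times within a genotype share 1 control group.

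The activators had the largest median. All 5 were called higher at 240 min, with differences from 0.41 to 2.01 and a median of 1.42, and 4 of the 5 were also called higher after quantile normalisation. Psme2, the beta subunit of cytoplasmic PA28, began at 11.16, 11.16 and 11.20, stood at 12.23, 12.20 and 12.28 by 120 min and 13.19, 13.15 and 13.22 by 240 min, and ended at 13.20, 13.43 and 13.46. Every library from 60 min on (11.50, 11.41 and 11.43 at 60 min) lay above every unstimulated one. That separation was found in 3451 of the 11656 tested genes at 60 min and 3959 at 120 min. It was found in 4766 at 240 min and 4355 at 360 min. Psme2 was called higher at 60 min, but not after quantile normalisation (0.07). Its rise at 240 min was 2.01 ± 0.05 (4.04-fold; adjusted p = 3.64e-25). Psme1, its partner in the ring, went from 11.05, 10.97 and 10.92 to 12.40, 12.39 and 12.39 at 240 min, a rise of 1.42 ± 0.05 (2.67-fold; limma adjusted p = 1.9e-21). The genes of this pair face each other on chromosome 14 with 5911 bases between them: Psme1 on the plus strand (55578123 to 55581529, GRCm38) and Psme2 on the minus strand (55587441 to 55591113). Psme4, which encodes PA200, had values of 10.71, 10.84 and 10.82 before LPS and had small differences at 60 and 120 min, both of 0.11 ± 0.05 and not called (adjusted p = 0.115 and 0.0801), although all 3 libraries at 60 min (10.87, 10.91 and 10.92) lay above those at 0 min. At 120 min it was called higher after trimmed mean scaling (0.12) and lower after quantile normalisation (-0.17). It then stood at 11.73, 11.66 and 11.72 at 240 min (0.92 ± 0.05). By 120 min Psme1 had covered 34.4% and Psme2 48.6% of their own 360 min rises. Psme3, the nuclear PA28, was earlier: its rise of 0.41 ± 0.04 was complete at 120 min (10.74, 10.77 and 10.70 from 10.31, 10.33 and 10.34) and the difference at 240 min was again 0.41. After quantile normalisation the rise of Psme3 at 240 min was 0.01 and not called.

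**Figure D1:**
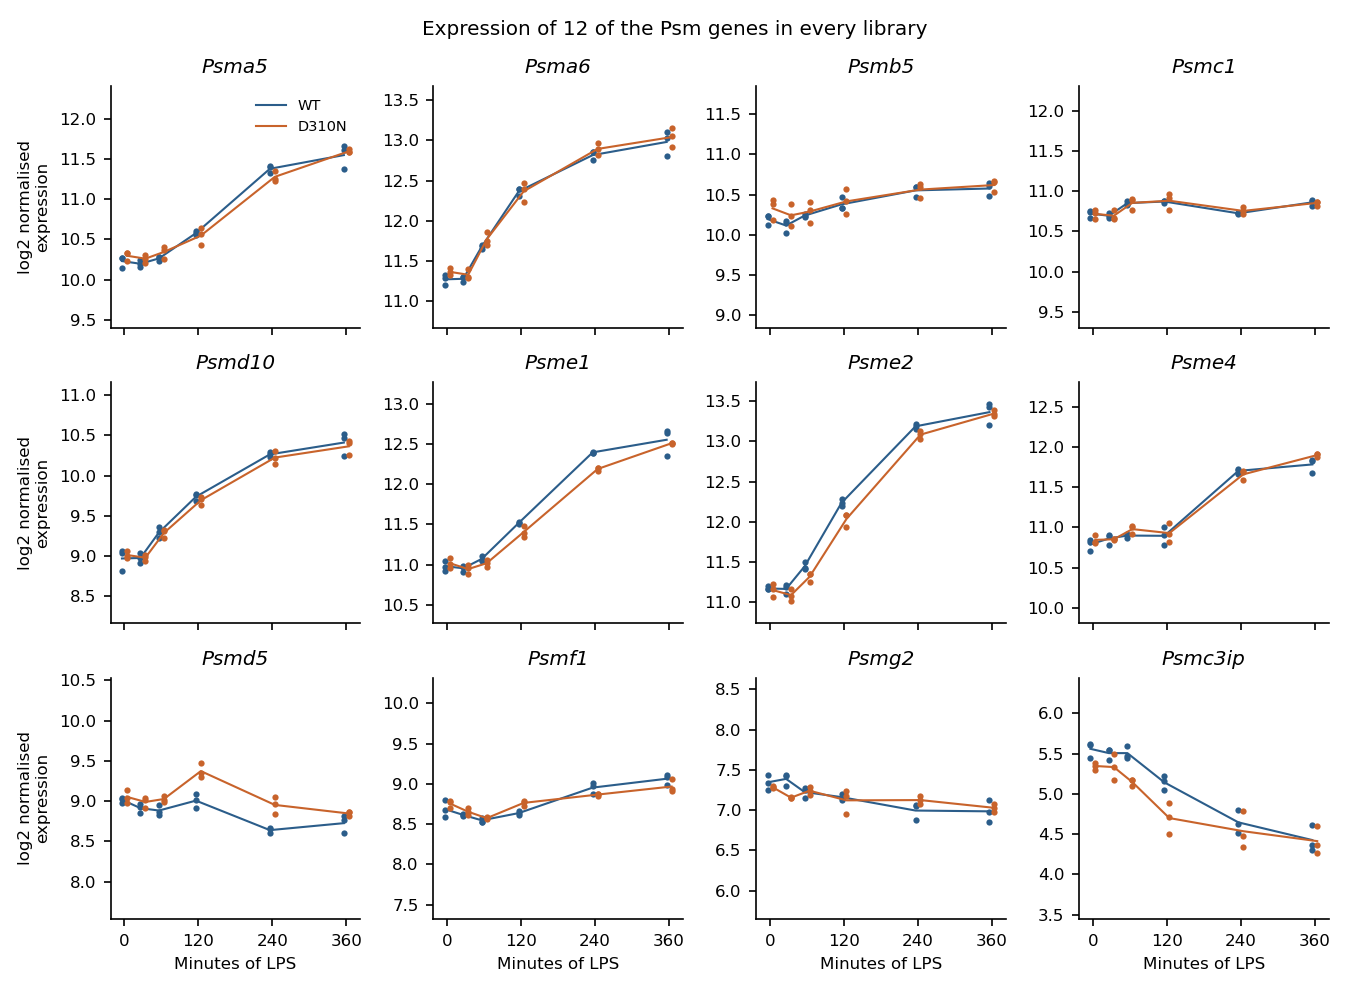
Normalised expression (log2, y axes of equal span) of 12 genes against minutes of LPS, 1 point per library, lines through the group means, WT in blue and D310N in orange, offset sideways for legibility. Psme2 climbs from about 11.16 to over 13.15 by 240 min in WT, Psme4 stays near its starting level up to 120 min and stands at 11.59 or more at 240 min, and Psmd5 is the one of the 12 whose D310N libraries lie above all WT libraries at 120 and 240 min.

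Psme2b is uncertain as a gene of its own. Its transcript was 99.4% identical to that of Psme2 over 794 aligned bases, and its whole length of 837 bases on chromosome 11 (48945354 to 48946190, minus strand, GRCm38) lies within Gm12185, a protein-coding gene on the same strand, and 41 of its bases lie within another, 9930111J21Rik1. How the counting divided shared reads is not given in the sources used here. In WT it started at 8.36, 8.68 and 8.50, dipped to 7.91, 8.04 and 8.09 by 60 min and reached 10.40, 10.30 and 10.21 by 240 min. The difference at 60 min was -0.50 ± 0.07 for Psme2b, -0.52 ± 0.11 for Gm12185, -0.86 ± 0.11 for 9930111J21Rik1 and 0.27 ± 0.05 for Psme2. At 240 min Psme2b rose by 1.79, Gm12185 by 3.84, 9930111J21Rik1 by 1.56 and Psme2 by 2.01. At 0 min Gm12185 had 5.52, 5.66 and 5.65 and 9930111J21Rik1 had 10.82 or more (log2 values not corrected for length). The part of shared reads in these values was not tested.

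The alpha ring responded unevenly. Of its 8 genes, 7 were called higher at 240 min and 0 lower, with a median difference of 0.92, and 5 were higher and 1 lower after quantile normalisation. Psma6 led: unstimulated libraries had 11.20, 11.33 and 11.29, followed by 11.70, 11.65 and 11.69 after 60 min, 12.39, 12.31 and 12.40 after 120 min, then 12.85, 12.75 and 12.85 after 240 min. The groups at 60 min and later did not overlap the unstimulated one, and Psma6 was already 0.41 ± 0.06 higher at 60 min, 64.1% of the way to its 360 min level at 120 min, and 1.55 ± 0.06 higher (2.92-fold; limma adjusted p = 3.82e-20) at 240 min. Psma6 occupies chromosome 12 from 55384222 to 55418454 (plus strand, GRCm38), and the inhibitor of NF-kB gene Nfkbia, which was 2.89 ± 0.05 higher at 30 min, lies 70955 bases away on the other strand. Psma5 went from 10.15, 10.27 and 10.27 to 11.40, 11.32 and 11.41 at 240 min (1.15 ± 0.06). It was slower, with 26.2% of its 360 min rise reached at 120 min.

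Psma3 (1.02 ± 0.05), Psma4 (0.97 ± 0.06) and Psma2 (0.88 ± 0.04) also rose at 240 min, and Psma2 shares 8943 bases with the same-strand gene AW209491. Psma7 rose by 0.42 ± 0.05. Psma1, another obligatory ring member, changed by 0.15 ± 0.05, and this small rise turned into a called fall after quantile normalisation (-0.37). The ring contains these 7 subunits in equal number, and their RNA differences ran from 0.15 to 1.55. Psma8, the testis form of an alpha subunit, was close to the level needed for testing (4.11, 4.38 and 4.08 at 0 min) and lower at 360 min (3.47, 3.64 and 3.52; -0.65 ± 0.16; adjusted p = 0.000549; -0.61 without the WT 360 min replicate 1 library).

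The beta ring covered a narrower range. All 7 genes were called higher at 240 min, between 0.36 and 0.73, and 4 of 7 after quantile normalisation, where 0 were lower. Psmb5, the chymotrypsin-like subunit, went from 10.23, 10.12 and 10.24 to 10.59, 10.47 and 10.60 (0.36 ± 0.08; adjusted p = 0.000102), with a difference of -0.01 after quantile normalisation. Psmb6, the caspase-like subunit, went from 10.99, 10.89 and 10.97 to 11.68, 11.67 and 11.70 (0.73 ± 0.06). Psmb7, the trypsin-like subunit, which overlaps Nek6 on the other strand, went from 10.60, 10.68 and 10.65 to 11.29, 11.31 and 11.30 (0.66 ± 0.05). In all 3 the libraries at 240 min lay above those at 0 min, as they did in 4766 of the 11656 tested genes. The non-catalytic genes Psmb4 (0.59 ± 0.05), Psmb2 (0.57 ± 0.04), Psmb1 (0.42 ± 0.05) and Psmb3 (0.40 ± 0.06) rose as well, with 0.06, 0.21, -0.06 and 0.16 after quantile normalisation.

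The inducible counterparts rose further. Psmb8, Psmb9 and Psmb10 were 1.45, 1.90 and 1.95 higher at 240 min. Within each library, the log2 ratio of Psmb8 to Psmb5 had changed by 1.10 ± 0.09 (SD, n = 3) in WT at 240 min, that of Psmb9 to Psmb6 by 1.16 ± 0.06 and that of Psmb10 to Psmb7 by 1.30 ± 0.02. The matching changes in D310N were 1.16 ± 0.08, 1.25 ± 0.07 and 1.17 ± 0.12. At 60 min the ratio of Psmb9 to Psmb6 was instead lower, by 0.32 to 0.45 in the 3 WT libraries, with Psmb6 0.30 ± 0.06 higher and Psmb9 at -0.07 ± 0.06. These ratios do not depend on the scaling of a library by a constant. Quantile normalisation shifts values according to their level, so it can change the ratios, which were not computed after it. With 3 libraries against 3, an exact permutation test cannot give a two-sided p under 0.10.

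**Figure D2:**
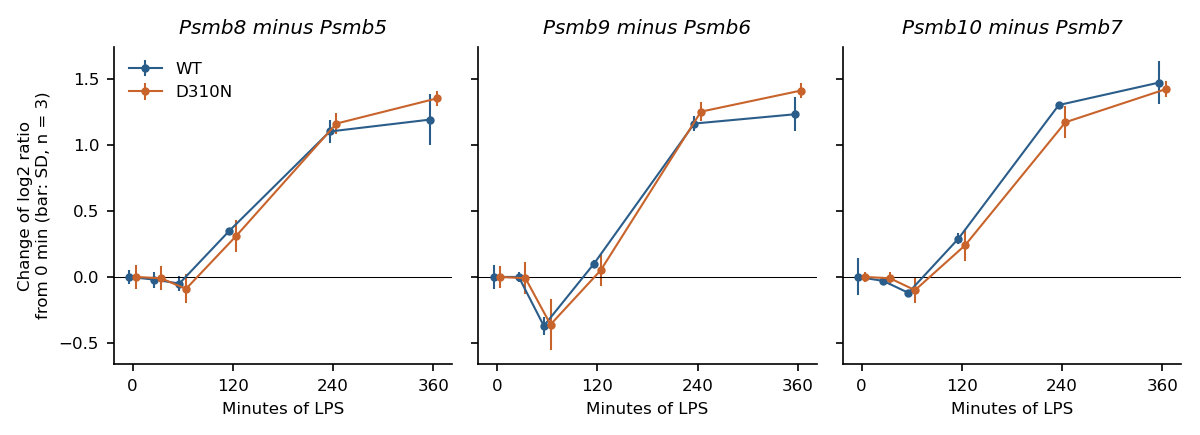
Change from 0 min of the log2 ratio of each inducible catalytic subunit to its constitutive counterpart (y axis) against minutes of LPS, mean of 3 libraries with SD, WT in blue and D310N in orange. The ratios lie at or below 0 at 60 min, and at 240 min between 1.10 and 1.30 in both genotypes.

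The 19S genes had smaller medians, 0.37 for the ATPases and 0.29 for the other subunits. Among the 6 ATPases, 5 were called higher at 240 min (0.24 to 0.52), but 1 was higher and 2 lower after quantile normalisation. Psmc4 rose from 10.05, 10.07 and 10.11 to 10.56, 10.60 and 10.61 (0.52 ± 0.05). Psmc1 stood at 10.67, 10.74 and 10.75 without LPS, then 10.73, 10.73 and 10.71 after 240 min, a difference of 0.00 ± 0.04 (adjusted p = 0.969). At other times it was called higher with the values as deposited: at 60 min, at 120 min (10.88, 10.85 and 10.88) and at 360 min (0.14). After quantile normalisation these differences were -0.04, -0.13 and -0.32. The other 4 were Psmc5 (0.44 ± 0.05), Psmc2 (0.41 ± 0.04), Psmc6 (0.33 ± 0.05) and Psmc3 (0.24 ± 0.05), and Psmc6 had already reached 0.28 ± 0.05 at 60 min. All 11 non-ATPase subunits were called higher at 240 min (0.08 to 0.74), but 4 were higher and 4 lower after quantile normalisation. Psmd7, the partner of the deubiquitinase Psmd14, rose from 10.28, 10.29 and 10.37 to 11.06, 11.06 and 11.05 (0.74 ± 0.05). Psmd14 itself rose by 0.60 ± 0.05, the lid subunits Psmd6 and Psmd11 by 0.68 ± 0.05 and 0.66 ± 0.05, and the ubiquitin receptor Psmd4 by 0.48 ± 0.05. Psmd12 and Psmd13 had 0.29, Psmd3 0.27, the base scaffold Psmd2 0.26 and Psmd8 0.25. Psmd1, the large scaffold of the cap base, differed by 0.08 ± 0.04 and lost its call (adjusted p up to 0.21) without WT 0 min replicate 1 or 3 or WT 240 min replicate 2 or 3. The call was also lost with no filter on low values (adjusted p = 0.0627) and with only the libraries compared (adjusted p = 0.0626). After quantile normalisation the difference was -0.55. At 120 min Psmd1 was called higher (11.71, 11.68 and 11.71, from 11.43, 11.55 and 11.45 at 0 min), and lower after quantile normalisation (-0.15).

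**Figure D3:**
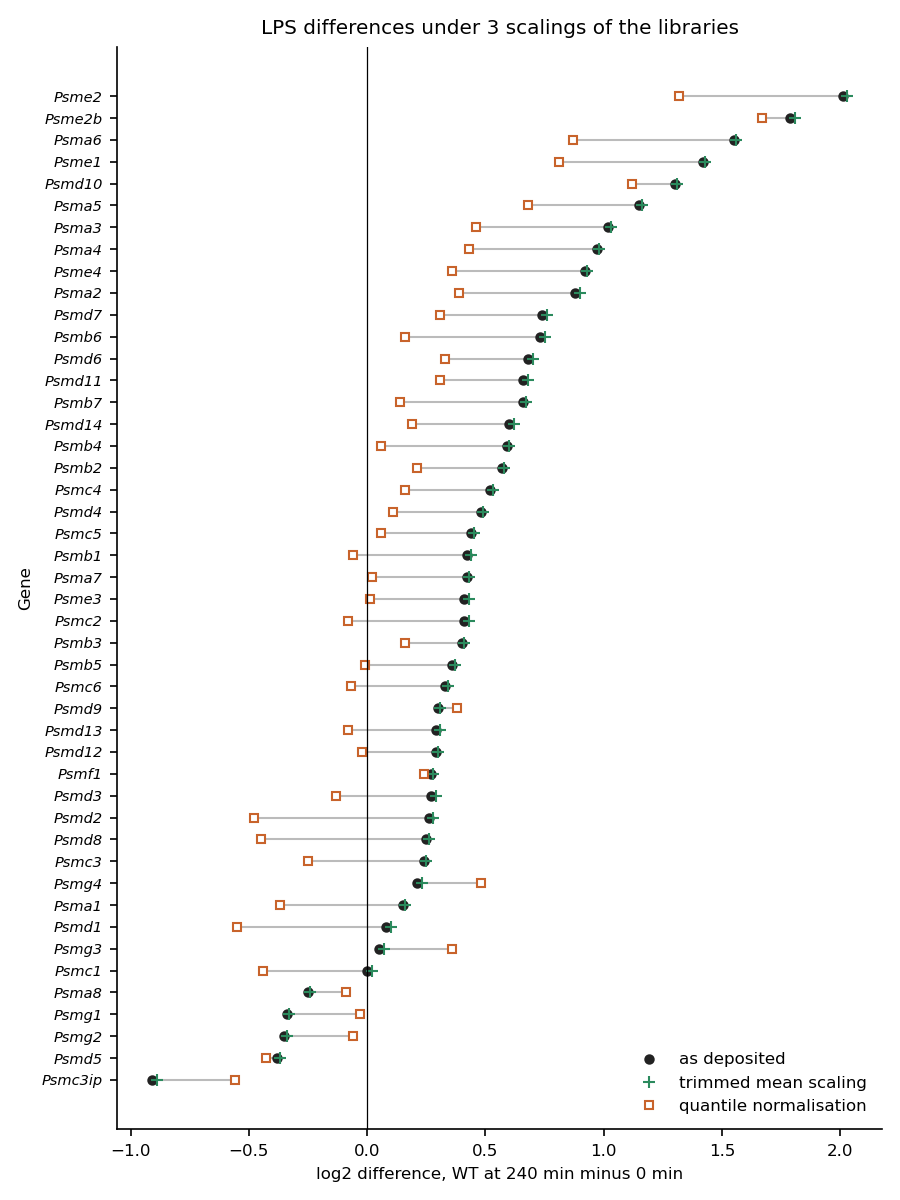
Difference between WT at 240 min and at 0 min (log2, x axis) for each of the 46 genes (y axis) with the values as deposited (filled circles), after trimmed mean scaling (plus signs) and after quantile normalisation (open squares). Quantile normalisation places Psme2 at 1.32, Psma6 at 0.87, Psmc1 below 0 and Psmd1 at -0.55, and the trimmed mean lies close to the deposited values.

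With the values as deposited, the assembly chaperones moved in both directions. Psmd10 (gankyrin), which escorts ATPases into the cap, rose from 8.81, 9.04 and 9.06 to 9.36, 9.22 and 9.30 within 60 min, and to 10.29, 10.23 and 10.27 within 240 min (1.30 ± 0.06; 2.45-fold), and by 1.12 after quantile normalisation. Psmd5, another ATPase chaperone, fell: from WT values of 8.98, 9.03 and 9.04 it went to 8.67, 8.65 and 8.60 after 240 min, without overlap (-0.38 ± 0.06; adjusted p = 7.74e-07). In 4833 of the 11656 tested genes all WT libraries at 240 min lay below those at 0 min. Psmd9 rose by 0.30 ± 0.05. Of the 4 chaperones that build the 20S core, Psmg1 (-0.34 ± 0.07) and its partner Psmg2 (-0.35 ± 0.07) fell, Psmg3 had 0.05 ± 0.11, and Psmg4 had 0.21 ± 0.10. The calls of Psmg1 and Psmg2 at 240 min were lost after quantile normalisation, with differences of -0.03 and -0.06, while Psmg3 (0.36) and Psmg4 (0.48) were called higher, so the 4 genes gave 2 higher and 0 lower. Psmg2 went from 7.44, 7.34 and 7.25 to 7.05, 7.06 and 6.87. The call of Psmg4 (adjusted p = 0.0493) was made under all 3 scalings. It was lost with the replicate number as a block (adjusted p = 0.0528) and with no filter on low values (adjusted p = 0.0634). Leaving out WT 0 min replicate 2 or 3 or WT 240 min replicate 1 or 3 lost it as well (adjusted p up to 0.34). Psmf1, the inhibitor PI31, started from 8.80, 8.67 and 8.59, with 8.53, 8.58 and 8.53 after 60 min, then 8.88, 8.97 and 9.01 after 240 min (0.27 ± 0.05; adjusted p = 1.45e-05). Psmc3ip fell from 5.62, 5.61 and 5.45 to 4.63, 4.80 and 4.51 at 240 min (-0.91 ± 0.12; 1.88-fold lower).

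The responses began after the first 30 min. At 30 min of LPS limma called 0 members in WT (4.79% of all tested genes were higher and 1.30% lower), and 2 members had an unadjusted p under 0.05. At 60 min 21 were higher (20.1% of all tested genes) and 3 lower (17.1%), and at 120 min 36 were higher (32.4%) and 3 lower (34.2%). Quantile normalisation gave 4 higher (16.1% of all tested genes) and 7 lower (29.4%) at 60 min, and 19 higher (27.6%) and 7 lower (40.3%) at 120 min. The 4 genes called higher at 60 min under all 3 scalings were Psma6, Psmc6, Psmd12 and Psmd10. At 360 min 38 were higher (39.3%) and 5 lower (41.0%), or 24 (34.1%) and 9 (44.7%) after quantile normalisation, with the extremes Psme2 at 2.19 and Psmc3ip at -1.13. Leaving out WT 360 min replicate 1 gave 2.27 for Psme2, 1.79 for Psma6 (1.71 with it), 1.67 for Psme1 (1.57 with it) and -1.22 for Psmc3ip. With the values as deposited, the first call in WT (in either direction) came at 60 min for 24 of the 46 members. It came at 120 min for 17 and at 240 min for 5, which were Psmd5, Psmd9, Psme4, Psmg1 and Psmg4. No share of all tested genes is given for these first calls or for the 4 genes called under all 3 scalings. First calls after quantile normalisation are not given either.

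**Figure D4:**
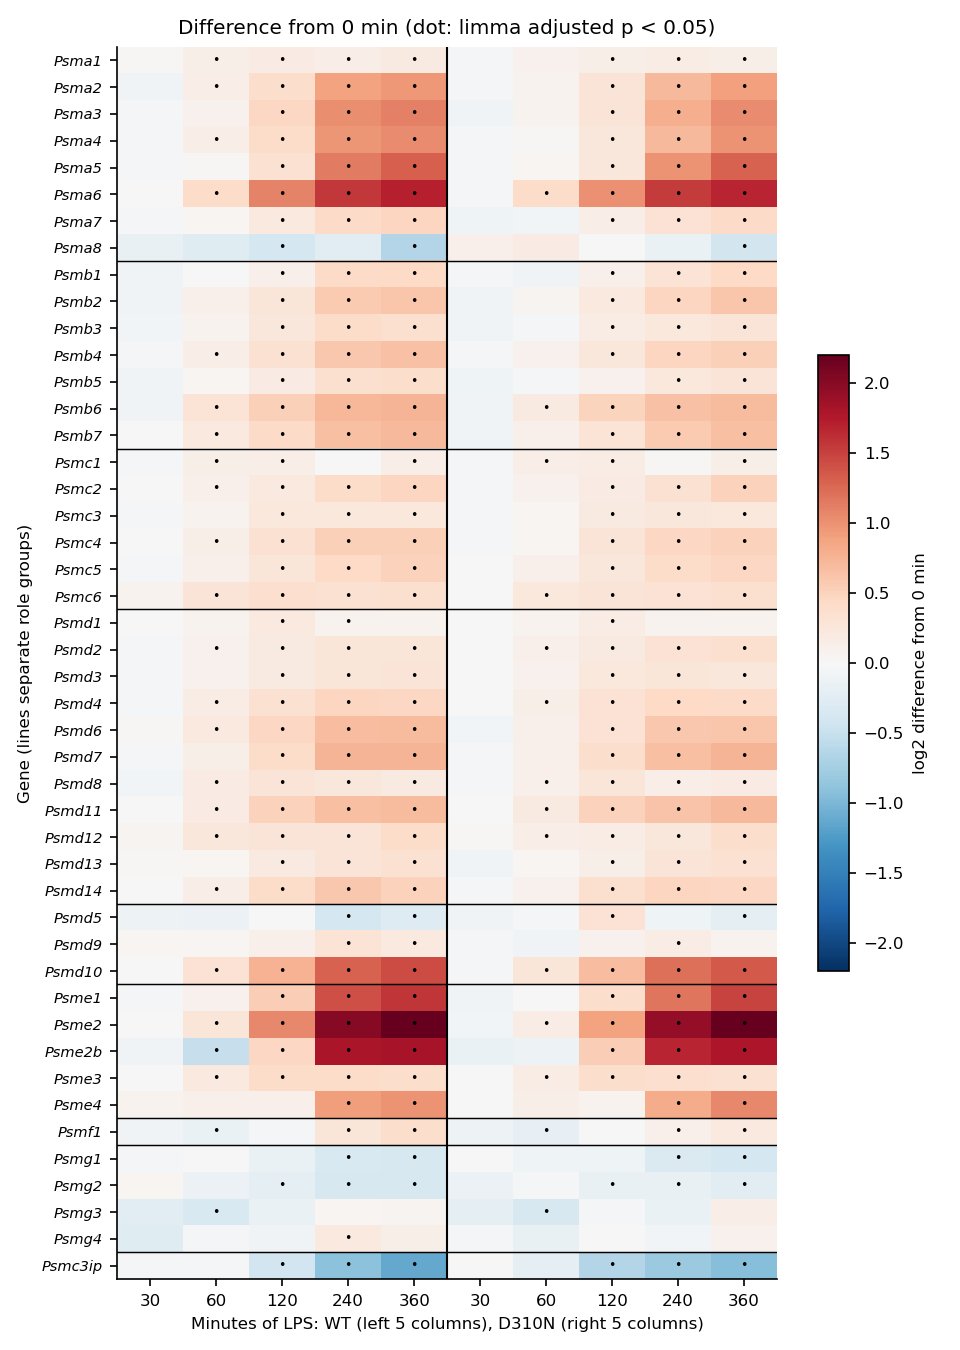
Difference from the 0 min group of the same genotype (log2, colour scale) for the 46 genes (rows, in role groups separated by lines) at 30 to 360 min in WT (left columns) and D310N (right columns), with a dot where limma's adjusted p was under 0.05. The darkest rows in both genotypes are Psme2, Psme2b, Psma6, Psme1, Psmd10 and Psma5, and no member carries a dot at 30 min. Quantile normalisation, not drawn here, turned 12 of the 39 called rises of WT at 240 min below 0 (no share of all tested genes is given for this count).

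Genes of the proteasome pathway outside the rule gave a mixed picture. A list of partners, shuttling receptors, regulators and ubiquitin genes held 29 tested genes. In WT at 240 min 21 were called higher (39.6% of all tested genes) and 3 lower (40.4%), with a median of 0.25. After quantile normalisation 6 were higher (33.6% of all tested genes) and 15 lower (45.0%), with a median of -0.12. Fbxo7, a partner of Psmf1, rose by 0.90 ± 0.06, the proteasome adaptor AI314180 (Ecm29) by 0.70 ± 0.05, the ubiquitin ligase Ube3a by 0.60 ± 0.07 and the proteasome-associated thioredoxin Txnl1 by 0.59 ± 0.06. The 3 that fell were Zfand2a, a stress-induced 19S partner (-1.53 ± 0.12), Ddi2, the protease that activates NRF1 (-1.41 ± 0.08), and the shuttling receptor Ubqln2 (-0.75 ± 0.07). Nfe2l1, the gene for NRF1 itself, had 0.42 ± 0.03 (-0.28 after quantile normalisation) and Pomp, the maturation chaperone of the core, 0.45 ± 0.06 (-0.09); these 2 were chosen after their values were seen.

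Most members were also called in D310N macrophages. At 240 min 37 members were called higher (39.0% of all tested genes) and 3 lower (40.2%), with a median of 0.33, and after quantile normalisation 16 were higher (32.1%) and 11 lower (45.2%). The 37 rises were all among the 39 of WT. Psmd1, Psmd5 and Psmg4 were called at 240 min in WT and not in D310N, as were Psma8 and Psmb5 at 120 min, Psmd9 at 360 min and 10 members at 60 min, and Psmd5 was called at 120 min in D310N and not in WT. A call in 1 genotype alone is no test of a difference between them, and 0 members were called in opposite directions in the 2 genotypes at any time. Psme2 went from 11.23, 11.07 and 11.16 to 13.13, 13.09 and 13.03 (1.93 ± 0.05), and Psma6 from 11.41, 11.33 and 11.36 to 12.97, 12.89 and 12.82 (1.53 ± 0.06). Psmd10 rose by 1.21 ± 0.06 and Psme1 by 1.17 ± 0.05. At 30 min limma called 0 (5.16% of all tested genes were higher and 1.48% lower; 1 member had an unadjusted p under 0.05, and quantile normalisation called 1). At 60 min 12 were higher (21.3%) and 2 lower (17.2%), a count of 14 that became 8 without D310N 0 min replicate 2 and 23 without D310N 60 min replicate 2; the split was 2 higher (16.6%) and 13 lower (29.9%) after quantile normalisation. At 120 min 36 were higher (31.9%) and 2 lower (32.1%), or 9 (26.0%) and 8 (39.9%) after quantile normalisation. At 360 min 37 were higher (39.0%) and 5 lower (41.0%), or 20 (33.4%) and 9 (44.7%).

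The LPS responses of the genotypes were compared gene by gene. The response of D310N minus that of WT at 240 min was negative for 37 of the 46 members (49.9% of all tested genes), with a median of -0.08 (all genes 0.00), but limma called 0 members (1.95% of all tested genes; 7 members had an unadjusted p under 0.05). The difference was likewise negative for 31, 36, 34 and 33 members at 30, 60, 120 and 360 min (48.5%, 46.8%, 45.5% and 49.7% of all tested genes). At 0 min the members' median difference between the genotypes was 0.06 (all genes -0.01), which enters each of these differences. Psmd5 was the only member called at 120 min (0.935% of all tested genes), with a response 0.33 ± 0.08 higher in D310N (adjusted p = 0.0454). This call was lost after quantile normalisation (0.30; adjusted p = 0.08), with no filter on low values (adjusted p = 0.0531) and in 24 of 36 fits that left out 1 library. The joint F test over all 5 times called 2 of the 46, Psme2b (adjusted p = 0.0179) and Psmd5 (adjusted p = 0.0375), a share near the 4.84% of all tested genes. With the replicate number as a block this count was 4, and the joint call of Psmd5 was lost after quantile normalisation (adjusted p = 0.0977).

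Psmd5 lies on chromosome 2 (34849734 to 34874968, minus strand, GRCm38) and overlaps Cutal by 573 bases on the other strand. By 120 min WT libraries held 9.09, 8.92 and 9.01, D310N libraries 9.47, 9.30 and 9.35. By 240 min WT libraries held 8.67, 8.65 and 8.60, D310N libraries 8.97, 8.84 and 9.05. The D310N libraries lay above all WT libraries at both times, by 0.37 ± 0.06 (adjusted p = 3.53e-05) and 0.31 ± 0.06 (adjusted p = 0.000395), while at 0 min the difference was 0.04 ± 0.06 (adjusted p = 0.801). Such a separation was found in 1813 of the 11656 tested genes at 120 min and 1869 at 240 min. Against its own 0 min group, Psmd5 was higher in D310N at 120 min (0.32 ± 0.06; adjusted p = 1.84e-05), where WT had -0.01 ± 0.06. Psme2b at 60 min was at 7.91, 8.04 and 8.09 in WT and 8.27, 8.37 and 8.27 in D310N (0.29 ± 0.07; adjusted p = 0.00584), and without WT 60 min replicate 1 this was 0.24 (adjusted p = 0.0586). Gm12185, which covers Psme2b, had 0.12 ± 0.11 at that time (adjusted p = 0.598), and 9930111J21Rik1 had -0.18 ± 0.11 (adjusted p = 0.359). Psme2 at 60 min went the other way, with 11.50, 11.41 and 11.43 in WT and 11.35, 11.25 and 11.35 in D310N.

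Levels of the members differed little between genotypes. On average over the 6 times, 15 members were higher in D310N (22.7% of all tested genes) and 6 lower (25.4%), with all 21 differences between -0.22 and 0.17 and a median over the 46 of 0.03 (all genes 0.00). The 15 held 7 of the 11 non-ATPase subunits of the cap, 3 beta, 2 alpha and 2 ATPase genes, and Psmd5. The largest were Psmd5 (0.17 ± 0.02), Psmd1 (0.11 ± 0.02; adjusted p = 8.16e-07) and Psmd3 (0.08 ± 0.02). The average over the times takes all libraries of a genotype as independent. Same-numbered D310N libraries deviated together (all 15 correlations with 0 min were positive), so SEs and p-values of the average may be too small. The replicate block used as an alternative for it was shared by the 2 genotypes and cannot test this. Psmd1, which overlaps Htr2b on the other strand, had values at 240 min of 11.53, 11.59 and 11.56 in WT and 11.71, 11.64 and 11.67 in D310N. The 6 lower genes were Psmc3ip (-0.22 ± 0.05; adjusted p = 0.000355), Psma8 (-0.16 ± 0.07), Psmd8 (-0.11 ± 0.02), Psme2 (-0.09 ± 0.02), Psmd9 (-0.08 ± 0.02) and Psme1 (-0.07 ± 0.02). Psma8 lost its call in 20 of the 36 fits that left out 1 library (adjusted p = 0.0436 with all, up to 0.0805). Psmd8, a non-ATPase subunit of the cap, had 12.03, 12.02 and 12.06 in WT and 11.79, 11.88 and 11.88 in D310N at 240 min. Psmd3 had 10.64, 10.71 and 10.71 in WT and 10.76, 10.73 and 10.78 in D310N at that time, a difference of 0.07 ± 0.05 that was not called. Psmc3ip at 120 min had 5.05, 5.22 and 5.16 in WT, against 4.71, 4.50 and 4.89 in D310N (-0.44 ± 0.12; adjusted p = 0.00784). The inducible subunits Psmb8, Psmb9 and Psmb10 were lower in D310N on average as well (-0.11, -0.19 and -0.10).

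**Figure D5:**
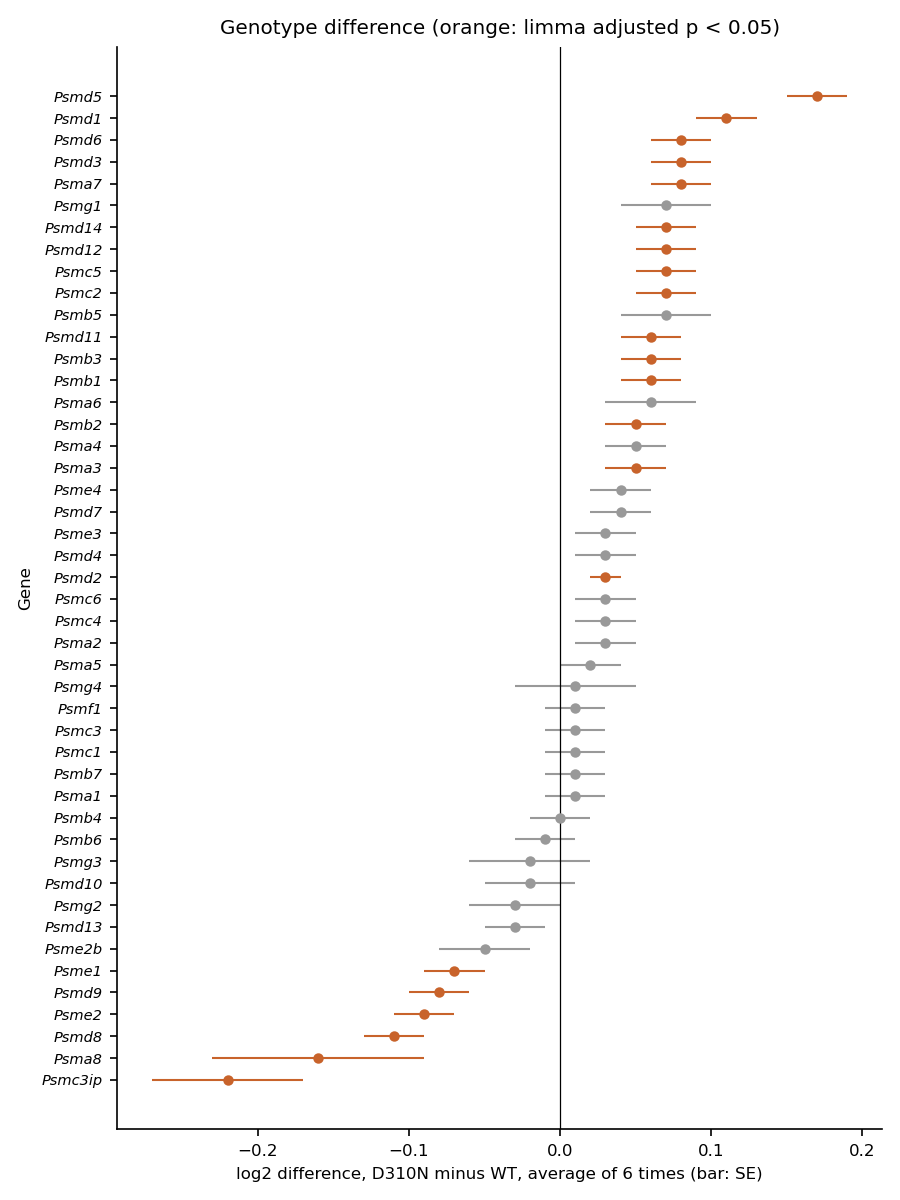
Difference between D310N and WT on average over the 6 times (log2, x axis; bars are SE) for each of the 46 genes (y axis), orange where limma's adjusted p was under 0.05. All differences lie between -0.22 (Psmc3ip) and 0.17 (Psmd5).

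Between the genotypes at single times, limma called 1 to 4 members. At 120 min 1 was higher (7.94% of all tested genes) and 2 lower (9.72%), and at 240 min 2 were higher (6.98%) and 2 lower (10.0%). With library weights the count at 240 min was 9. At 0, 30, 60 and 360 min, 1 to 4 members were called (10.7%, 12.2%, 12.9% and 16.3% of all tested genes), and these counts moved by more than 1.5 times when single libraries were left out. With library weights 16, 13 and 13 members were called at 0, 30 and 60 min. At 360 min the 2 calls were higher in D310N; without WT 360 min replicate 1 they were lost and Psme1 was called lower instead (-0.15; adjusted p = 0.0143).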

How the data were processed

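RNA was measured in 36 libraries, 3 in each of 12 groups of genotype and time. Per the submitters' processing notes, the authors used STAR 2.5.2a, RSEM 1.2.31, DESeq2 1.10.1 and the mm10 build; the deposited table holds normalised log2 values for 16439 genes, and how they were put on the log2 scale is not given in the sources used here, so differences of weakly expressed genes may be compressed. Read depth is unknown, so no counting intervals are given. The sample titles write D310N and the table's header D309N; the title's name is used. After leaving out 23 genes whose names had become dates, 16416 remained, of which 11656 passed a filter of 10 or more linear units (3.32 as log2) in 3 or more libraries. The plan foresaw adding 1 to a linear table; the table was already logarithmic, so nothing was added.

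Tests used limma 3.58.1 (R 4.3.3) over all 36 libraries (1 mean per group, 24 residual degrees of freedom, intensity trend), two-sided, with Benjamini-Hochberg adjustment over all tested genes within a comparison. The labels do not say whether the 3 libraries of a group came from separate mice, so p-values measure the spread between libraries. All 15 correlations between the deviations of same-numbered D310N libraries (each time against 0 min) were positive, with means of 0.171 to 0.276 over the 3 numbers, against 7 of 15 in WT. All 3 were above 0.1, the level set for pairing, for D310N at 120 min (0.325, 0.373 and 0.131). No replicate block entered the reported values.

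Members are given by role. Values per library are given for the catalytic subunits, the most and least changed member of each role group in WT at 240 min, the 3 largest and smallest average genotype differences and members called in the joint test; Psme1, Psme4 and Psma5 were added, and Psma1, Psma2, Psma3, Psma4, Psma7, Psmd9, Psmg1, Psmg3 and the remaining members named, after their values were seen. Some genes of the marker and pathway lists are counted but not reported here by name. The members, lists, motifs and rules were chosen with earlier results of these data known. Positions and overlaps are from GENCODE on GRCm38 and promoters from RefSeq. Alternatives were quantile normalisation, trimmed mean scaling, log2(value + 8), no filter, library weights, a replicate block, only the groups compared, and leaving out each library.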

Additional observations from a re-analysis of the deposited data

Results flagged for a closer look

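The LPS time course of 2 members differed between the genotypes by a test of the difference itself, a share near the 4.84% of all tested genes. Psme2b had a joint adjusted p of 0.0179, and it became 0.0819 without WT 60 min replicate 1 and 0.066 without D310N 60 min replicate 2; its reads cannot be told apart from those of Psme2 and Gm12185 with the files used. Psmd5 had a joint adjusted p of 0.0375, and its LPS response at 120 min was 0.33 higher in D310N. The call of Psmd5 at 120 min was lost in 24 of 36 fits that left out 1 library (adjusted p up to 0.175), and the joint call in 19 of 36 (adjusted p up to 0.0938). After quantile normalisation both calls of Psmd5 were lost (adjusted p = 0.08 and 0.0977).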

How the results depend on the processing

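The counts of members called in WT at 120, 240 and 360 min and in D310N at 240 and 360 min, and on average between genotypes, stayed within 1.5 times under all alternatives, although quantile normalisation changed their split into higher and lower. Quantile normalisation gave 2 members in WT at 30 min, 11 at 60 min, 1 in D310N at 30 min, 17 at 120 min, 2 between genotypes at 30 min, 0 at 360 min and 1 in the joint test. Library weights gave 1 member in WT and 2 in D310N at 30 min, 24 in D310N at 60 min, 16, 13, 13 and 9 between genotypes at 0, 30, 60 and 240 min, and 7 in the joint test. Without the filter on low values, 1 member was called between genotypes at 0 min and 0 at 360 min. Only the libraries compared gave 3 at 30 min and 0 at 360 min. The replicate block gave 2 between genotypes at 30 min and 4 in the joint test, and changed no other count by as much. At no time were all 3 correlations between same-numbered libraries of the 2 genotypes above 0.1. Single ones ran from -0.254 (replicate 1 at 120 min) to 0.258 (replicate 3 at 30 min). Quantile normalisation turned the sign of Psmb5 (WT at 120 and 240 min -0.05 and -0.01; D310N at 240 and 360 min -0.14 and -0.08), Psmc1 (WT at 60, 120 and 360 min -0.04, -0.13 and -0.32; D310N at 360 min -0.31), Psmc4 (WT at 60 min 0.00), Psmd1 (WT at 120 and 240 min -0.15 and -0.55), Psme3 (D310N at 240 and 360 min -0.03 and -0.07), Psmg2 (WT at 120 min 0.01; D310N at 240 and 360 min 0.07 and 0.02), Psmd8 (WT at 60, 120, 240 and 360 min -0.06, -0.13, -0.45 and -0.49; D310N at 240 and 360 min -0.47 and -0.47) and Psmd3 (WT at 120, 240 and 360 min -0.05, -0.13 and -0.12; D310N at 240 and 360 min -0.14 and -0.16). This list covers only the members chosen by rule. Other members also had called rises that became called falls. In WT these were Psmd2 at 60 min, Psma1, Psmb1 and Psmd2 at 120 min, and Psma1, Psmc3 and Psmd2 at 240 and 360 min. In D310N they were Psma1, Psmb1, Psmc2, Psmc3 and Psmd2 at 240 min and Psma1, Psmc3 and Psmd2 at 360 min. D310N at 60 and 120 min is not listed. The cause was not tested. Leaving out 1 library gave 0 to 1 members in WT at 30 min, 18 to 27 at 60 min, 36 to 40 at 120 min, 40 to 43 at 240 min and 43 to 44 at 360 min. In D310N it gave 0 at 30 min, 8 to 23 at 60 min, 33 to 38 at 120 min, 38 to 41 at 240 min and 40 to 42 at 360 min. Between genotypes it gave 0 to 6, 0 to 2, 1 to 5, 2 to 4, 3 to 6 and 0 to 3 at the 6 times, 16 to 25 on average and 1 to 3 in the joint test. At 0 min the count of 3 became 0 without WT 0 min replicate 1 or 3 or D310N 0 min replicate 1 or 3, 6 without D310N 0 min replicate 2 and 5 without WT 360 min replicate 1; 10, 5, 14 and 21 libraries moved the count at 30, 60 and 360 min and in the joint test by more than 1.5 times. Read depth is unknown, so its limits cannot be given.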
